A study of Mus musculus with 94 samples.

Results

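Expression of 10 imprinted genes in 5 domains was followed through every count table of the series. They are Peg3, Usp29 and Zim1, then Peg10 and Sgce, then Grb10, then Mest, and last Dlk1, Meg3 and Rian. They were chosen by symbol alone, as 10 of the 24767 genes listed in any of the 4 tables. All 10 were found in each of the 3 RNA tables, and 6 of them (Peg3, Zim1, Peg10, Sgce, Grb10 and Dlk1) in the table of nascent transcription. For Usp29, Mest, Meg3 and Rian nascent transcription was not analysed here. Every member found in a table passed the filter on low counts in it.

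Of the 94 samples of the series, 18 were used, 14 of poly(A) RNA and 4 of PRO-seq, which counts RNA still held by engaged polymerases. All came from mouse embryonic stem (ES) cells of a CAST/Ei x 129/Sv/Jae hybrid, labelled as carrying Tsix-stop, with an FKBP degron on either RAD21 or WAPL. The first is part of the cohesin ring, which folds chromatin into loops, and WAPL takes cohesin off chromatin. Adding dTAG-13 (500 nM) sends the tagged protein to the proteasome, and controls had the same volume of DMSO. The RAD21 degron clones C4 and G9 were given dTAG-13 or DMSO for 8 h, with RNA taken at day 10 of differentiation and PRO-seq at day 7 (2 dTAG-13 and 2 DMSO libraries in each set, 1 per clone). The WAPL degron cells were given dTAG-13 or DMSO for 3 days. On days 4 to 7 these were clone H7 (replicates 1 and 2) and clone H2 (replicate 3), with 3 dTAG-13 and 3 DMSO libraries, and on days 7 to 10 clone H7 alone, with 2 and 2. Each line is a single clone, grown on irradiated fibroblast feeders and then differentiated as embryoid bodies. The labels do not say whether libraries of a group came from separate cultures. The p-values therefore reflect the spread among these libraries alone, pooled in large part across genes, which may be technical. A small p-value does not show that the libraries of that gene agreed.

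Imprinted genes are transcribed mainly from the allele inherited from one parent, under DNA methylation marks set in the germ line. They lie in clusters, where a differentially methylated control region acts on several genes, and at some clusters CTCF and cohesin bind such a region and partition contacts between enhancers and promoters. Peg3, Usp29, Peg10, Sgce, Mest and Dlk1 are paternally expressed in mouse, whereas Zim1, Meg3, Rian and, in most tissues, Grb10 are maternally expressed. Many of these genes act on fetal and placental growth. The counts used here join both alleles, so allelic expression was not analysed here.

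Stretches of upstream sequence are shown because the results turn on the genes beside them. These are the interval between the divergent starts of Peg3 and Usp29, both of which fell after RAD21 degradation, the upstream region of Grb10, and that of Meg3, a member past the threshold in no comparison. They are from RefSeq, build GRCm38.p6, in lower case with each CpG, the dinucleotide that DNA methylation marks, in capitals. The first is chr7:6730463-6730558 on the plus strand, between the first exons of both genes. The second is chr11:12037429-12037670 on the minus strand and the last chr12:109540746-109540995 on the plus strand, each just outside the annotated gene.
Peg3-Usp29 interval: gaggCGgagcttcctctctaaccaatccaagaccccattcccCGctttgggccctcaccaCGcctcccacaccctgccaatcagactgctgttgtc
Grb10 upstream: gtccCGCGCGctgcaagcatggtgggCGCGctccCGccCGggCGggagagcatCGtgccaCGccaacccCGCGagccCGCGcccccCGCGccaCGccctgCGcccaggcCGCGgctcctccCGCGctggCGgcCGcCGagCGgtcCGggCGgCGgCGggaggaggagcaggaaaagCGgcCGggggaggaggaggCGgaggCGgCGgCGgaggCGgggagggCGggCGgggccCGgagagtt
Meg3 upstream: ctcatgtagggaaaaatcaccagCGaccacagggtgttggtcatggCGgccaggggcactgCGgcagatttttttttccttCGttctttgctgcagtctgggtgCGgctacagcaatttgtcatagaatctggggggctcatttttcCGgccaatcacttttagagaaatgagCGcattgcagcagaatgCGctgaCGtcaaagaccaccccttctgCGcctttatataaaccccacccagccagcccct

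The Peg3-Usp29 interval holds 3 CpG in 96 bases, the Grb10 stretch 40 CpG in 242 bases and the Meg3 stretch 10 CpG in 250 bases. Over whole promoter windows of 300 bases, of which RefSeq gives 12 for 8 of the members and 32851 in all, the median was 7 CpG. The Grb10 window that contains the stretch shown holds 45 CpG, and 98.1% of all windows hold fewer, while its second window holds 9. The windows of Meg3 hold 13 and 1 CpG. Of the other members' windows, Zim1 has 20 CpG, Usp29 17, Peg3 13, Dlk1 9 and Rian 0, and the 3 windows of Mest have 8, 17 and 17. Peg10 and Sgce were not among the windows used. The letters TATAAA, searched on both strands, occurred in 1 of the 12 windows, the first of Meg3, and in 13.6% of all windows.

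Total counts per library were 13802076 to 33808921 in the RAD21 RNA table, 14269544.5 to 34335988.5 in the PRO-seq table, 8413212 to 35388461 for WAPL days 4 to 7 and 12076585 to 26956675 for days 7 to 10. Levels are given as CPM, each library's counts scaled to a common total, corrected for library composition but not for gene length, so they compare libraries and not genes. The degron acts on protein, so the transcript of the targeted gene does not check the labels. Rad21 averaged 250 ± 47.9 CPM with dTAG-13 and 226 ± 34.9 CPM with DMSO in the RAD21 RNA set (SD, n = 2 each). Wapl averaged 636 ± 362 CPM with dTAG-13 and 615 ± 324 CPM with DMSO on days 4 to 7 (SD, n = 3 each), with 757 to 922 CPM in the 4 libraries of clone H7 but 229 and 244 CPM in those of clone H2. All 9 pluripotent stem cell markers listed passed the filter in every comparison. In a bulk sample, fewer cells of a type and less RNA per cell cannot be told apart.

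After 8 h of dTAG-13 in RAD21 degron cells, poly(A) RNA of 6 of the 10 genes differed from DMSO (adjusted p under 0.05 in edgeR's quasi-likelihood test, by Benjamini-Hochberg over all 14470 genes tested). Peg3, Usp29, Grb10, Mest and Rian fell and Sgce rose. Across all genes 18.7% were called by the same rule, 8.89% lower and 9.83% higher, and the median log2 change was -0.20 over the members and 0.0051 over all genes. Scaling by library totals alone gave 710 higher and 1303 lower genes in place of 1422 and 1286. With DESeq2 only Peg3 was called among the members, and with no clone term none was. In PRO-seq, 2 of the 6 genes rose (Sgce and Peg10) and 1 fell (Peg3), against 10.6% called, 5.9% higher and 4.66% lower, among all 16496 genes tested, with medians of 0.24 and -0.0029. DESeq2 called only Sgce among the 6, and with no clone term none was called. After WAPL degradation on days 4 to 7, Grb10, Peg10 and Sgce rose and no member fell, against 15.2% called, 9.46% higher and 5.73% lower, among 14544 genes, with medians of 0.38 and -0.0067. With replicate number as a block 5 members were called, Dlk1 and Mest besides these 3. On days 7 to 10 none of the 10 passed the threshold, and neither did any of the 14110 genes tested (0%), with medians of 0.038 and -0.014. Of the members Grb10 alone had an unadjusted p under 0.05 (0.0182), and DESeq2 and limma-voom called none. That count depends on whether replicate number enters the fit as a block, which calls most of the members there, and the labels do not say what a shared number marks.

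**Figure D1:**
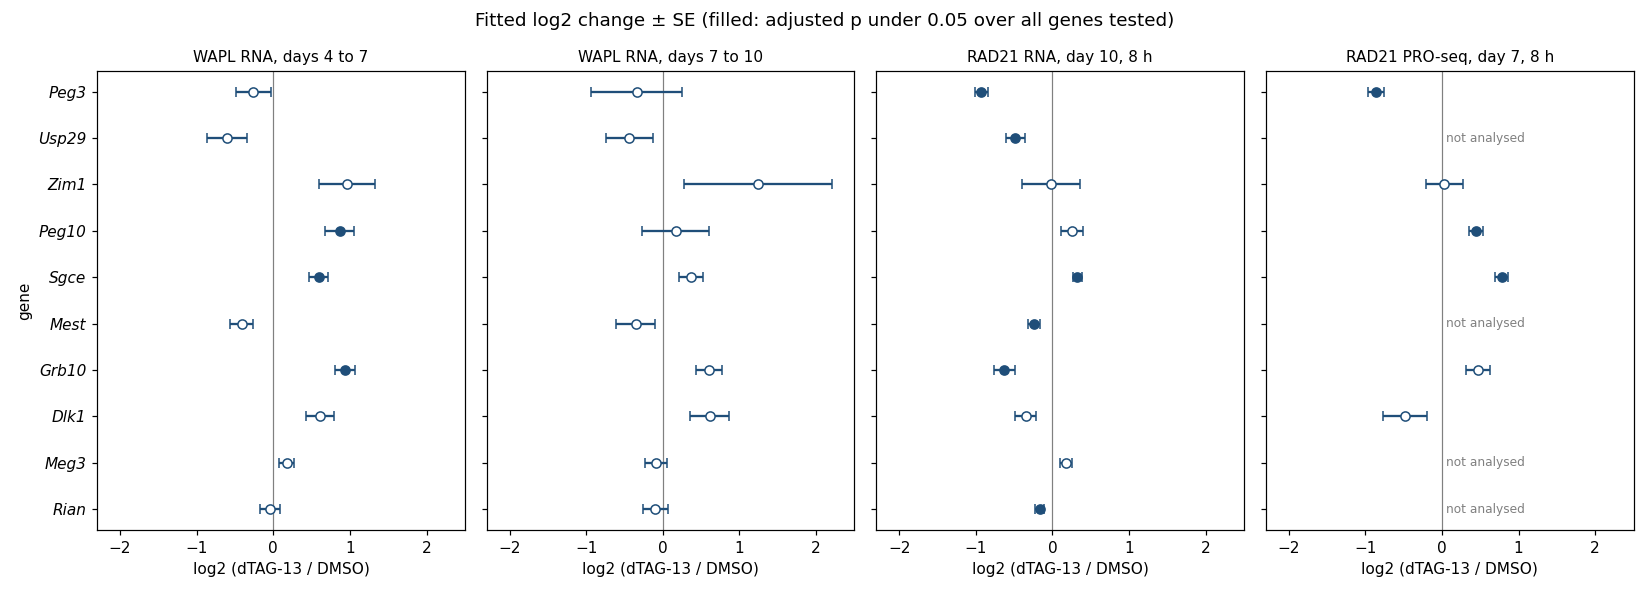
Fitted log2 changes (dTAG-13 over DMSO, x axis) of the 10 imprinted genes (y axis) in the 4 comparisons, with bars of 1 SE and filled points where the adjusted p over all genes tested was under 0.05. Peg3 and Sgce are filled on opposite sides of 0 in both RAD21 panels, at -0.93 and 0.32 in RNA and -0.87 and 0.78 in PRO-seq, and Grb10 is filled to the right for WAPL days 4 to 7 (0.94) and to the left for RAD21 RNA (-0.63).

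Groups that did not overlap were counted as well. In RAD21 RNA, 7 of 10 members had groups apart, 2 higher with dTAG-13 (Peg10 and Sgce) and 5 lower, against 30.9% of all genes. In PRO-seq 3 of 6 were apart (Sgce higher, Peg3 and Dlk1 lower), against 30.4% of all genes. On WAPL days 4 to 7 it was 4 of 10 (Peg10, Grb10 and Dlk1 higher, Usp29 lower), against 31% of all genes. On days 7 to 10 it was also 4 of 10 (Sgce, Grb10 and Dlk1 higher, Meg3 lower), against 34.1% of all genes, a share near the background.

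**Figure D2:**
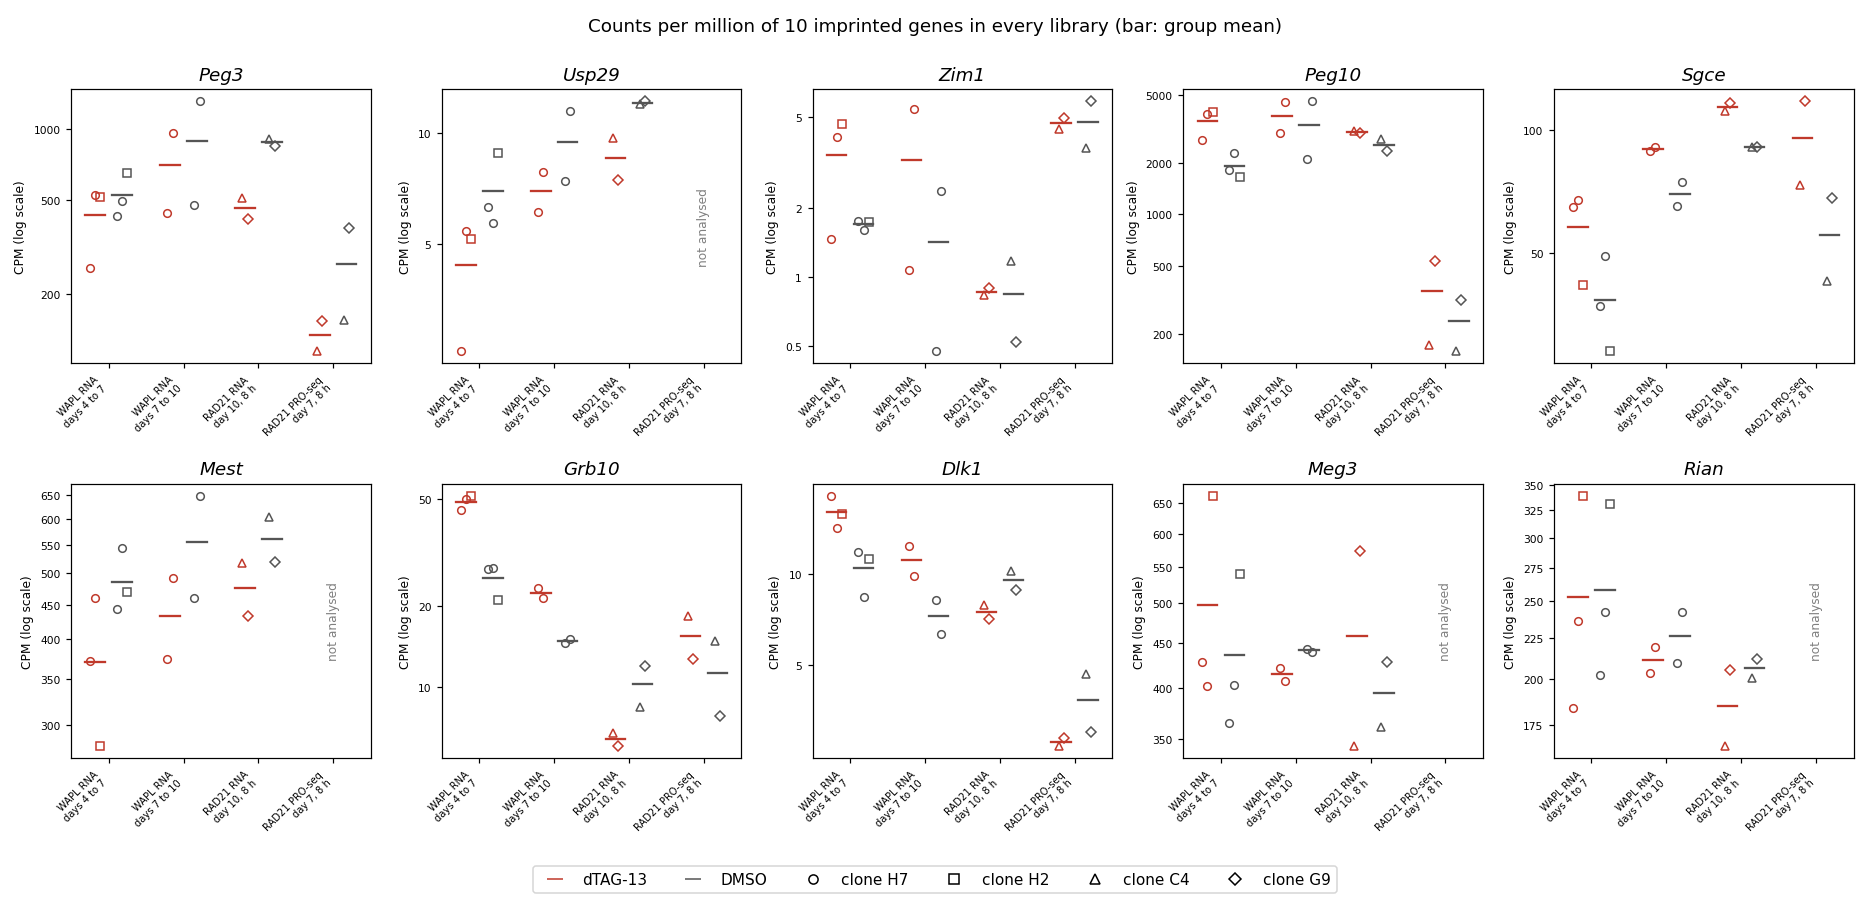
CPM on a log scale (y axis) of each imprinted gene in every library, by comparison (x axis), with dTAG-13 libraries in red left of DMSO libraries in grey, 1 symbol per clone and a bar at the group mean. The Peg3 panel shows the dTAG-13 libraries at 416 and 508 CPM and the DMSO libraries at 846 and 902 CPM in RAD21 RNA, and the Grb10 panel shows 45.3 to 51.2 CPM with dTAG-13 and 20.9 to 27.6 CPM with DMSO on WAPL days 4 to 7.

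Peg3, which encodes a Krüppel-type zinc finger protein, fell after RAD21 degradation in both assays. In RNA it stood at 508 CPM (clone C4) and 416 CPM (clone G9) with dTAG-13, against 902 CPM (C4) and 846 CPM (G9) with DMSO. The groups were well apart, with the highest dTAG-13 library below the lowest DMSO library in both clones. The log2 change was -0.93 ± 0.09 (SE, n = 2 each, edgeR adjusted p = 5.11e-23), and 1.58% of all genes tested had a lower one. Leaving out the dTAG-13 library of clone G9 ended this call (log2 change -0.78, adjusted p = 0.0578), and the other 3 fits that leave out a library kept it.

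Nascent Peg3 counts were 115 CPM (C4) and 154 CPM (G9) with dTAG-13, against 156 CPM (C4) and 379 CPM (G9) with DMSO. The groups did not overlap, but by a narrow margin, since the high dTAG-13 library of G9 came close to the low DMSO library of C4. The fitted log2 change was -0.87 ± 0.10 (SE, n = 2 each, edgeR adjusted p = 3.38e-07), made of -0.44 in C4 and -1.30 in G9. In PRO-seq 1.1% of genes had a lower log2 change. Leaving out any 1 of the 4 PRO-seq libraries, which also removes the clone term, ended this and the other 2 calls among the members. Such fits keep 1 library in a group and lose calls across all genes, so the loss is not particular to these. The log2 change of nascent Peg3 was then -0.21 without the DMSO library of G9 and -1.50 without that of C4. DESeq2 did not call Peg3 either (adjusted p = 0.388).

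Peg3 was not past the threshold with WAPL degraded in the fits of all libraries without a replicate block. On days 4 to 7 it had 259, 525 and 516 CPM with dTAG-13 (H7 replicate 1, H7 replicate 2 and H2, the order used throughout), against 426, 497 and 646 CPM with DMSO. The groups overlapped, and the replicate 1 library with dTAG-13 was the lowest (log2 change -0.26 ± 0.23, SE, edgeR adjusted p = 0.468). Without the dTAG-13 library of replicate 2 the log2 change was -0.61, with adjusted p = 0.0218. In the later window, days 7 to 10, the replicates of each group were far apart, at 442 and 960 CPM with dTAG-13 and 474 and 1304 CPM with DMSO. Both pairs were lower with dTAG-13, and the change passed only with replicate number as a block.

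Usp29, a ubiquitin-specific peptidase gene whose first exon faces that of Peg3, also fell in RAD21 RNA. It had 9.69 CPM (C4) and 7.48 CPM (G9) with dTAG-13, against 12 CPM (C4) and 12.2 CPM (G9) with DMSO. Both clones were lower with dTAG-13 (log2 ratio -0.31 in C4 and -0.71 in G9), and the groups did not overlap. The fitted change was -0.48 ± 0.13 (SE, edgeR adjusted p = 0.00172). DESeq2 and leaving out any of the 4 libraries ended the call (log2 -0.71 to -0.32), as they did for Sgce, Grb10, Mest and Rian in this set. Fits with a library left out have no clone term and lose calls across all genes, so that loss is not particular to these. In WAPL degron cells on days 4 to 7 Usp29 stood at 2.55, 5.41 and 5.16 CPM with dTAG-13 and at 6.32, 5.7 and 8.85 CPM with DMSO. All 3 pairs were lower with dTAG-13 there, yet the change missed the threshold (log2 -0.61 ± 0.26, SE, edgeR adjusted p = 0.15). Later, on days 7 to 10, it had 6.09 and 7.84 CPM with dTAG-13, against 7.43 and 11.5 CPM with DMSO, groups that overlapped. Both of those pairs were lower with dTAG-13, and the change passed only with replicate number as a block.

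Zim1, a zinc finger gene at the other side of Peg3 that is expressed from the maternal allele, had few counts. In RAD21 RNA its libraries held 22 and 12 counts with dTAG-13 and 28 and 18 counts with DMSO, and the clones went opposite ways (log2 -0.50 in C4, 0.79 in G9). In PRO-seq it had 4.42 CPM (C4) and 4.91 CPM (G9) with dTAG-13, against 3.66 CPM (C4) and 5.82 CPM (G9) with DMSO, again in opposite directions. With WAPL degraded on days 4 to 7 it had 1.47, 4.08 and 4.62 CPM with dTAG-13, against 1.75, 1.6 and 1.75 CPM with DMSO. The dTAG-13 libraries of H7 replicate 2 and of H2 stood above all DMSO libraries and that of H7 replicate 1 below them (log2 change 0.96 ± 0.36, SE, edgeR adjusted p = 0.111). Without the dTAG-13 library of replicate 1 the log2 change was 1.31, with adjusted p = 0.00604. Its days 7 to 10 libraries had 1.07 and 5.41 CPM with dTAG-13, against 0.478 and 2.38 CPM with DMSO. Both pairs were higher with dTAG-13, that of replicate 1 on 13 counts against 9. The change missed the threshold, but passed with replicate number as a block. Peg3 and Usp29 fell in RAD21 RNA, while the value for Zim1 was -0.02 ± 0.38 (SE). The difference between these genes was not tested.

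Of the genes listed beside Peg3, 2 of 6 could be tested in RAD21 RNA and 4 of 6 in PRO-seq without any passing edgeR's threshold (1 and 0 of them at an unadjusted p under 0.05). Among all genes 18.7% and 10.6% passed it, 8.89% and 4.66% as lower. Some pluripotency markers moved with Peg3. Of the 9 listed, 8 fell in RAD21 RNA, where their summed level was 999 to 1320 CPM with dTAG-13 and 1203 to 1663 CPM with DMSO. In PRO-seq 6 of the 9 fell, at 395 to 543 CPM with dTAG-13 and 567 to 686 CPM with DMSO. Their part in the Peg3 result was not tested.

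Sgce encodes epsilon-sarcoglycan, a membrane glycoprotein of the dystrophin-associated complexes, and shares a divergent promoter with Peg10. It rose in 3 of the 4 comparisons. In PRO-seq it had 73.5 CPM (C4) and 118 CPM (G9) with dTAG-13, against 42.8 CPM (C4) and 68.3 CPM (G9) with DMSO. The groups did not overlap and the clones gave the same log2 change, 0.78 each (fitted 0.78 ± 0.09, SE, edgeR adjusted p = 4.93e-08). With 1 library left out, and no clone term, the log2 change ranged between 0.41 (without dTAG-13 of G9) and 1.16 (without DMSO of G9), and the call was lost. In RAD21 RNA it had 112 CPM (C4) and 117 CPM (G9) with dTAG-13, against 91.1 CPM (C4) and 91 CPM (G9) with DMSO. Here too the groups were apart, by a smaller change (log2 0.32 ± 0.06, SE, edgeR adjusted p = 3.17e-07).

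On WAPL days 4 to 7 Sgce stood at 64.7, 67.6 and 41.8 CPM with dTAG-13 and at 37.2, 49.3 and 28.9 CPM with DMSO. Each pair was higher with dTAG-13, but the groups overlapped because both H2 libraries were low. The log2 change was 0.59 ± 0.13 (SE, n = 3 each, edgeR adjusted p = 0.0195). In the later window it had 88.9 and 91 CPM with dTAG-13, against 65.4 and 74.5 CPM with DMSO, groups that did not overlap. The change missed the threshold (log2 0.36 ± 0.16, SE, edgeR adjusted p = 0.785), but passed with replicate number as a block.

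Peg10 derives from a retrotransposon, encodes gag-like and pol-like proteins and is needed for the placenta. It rose on WAPL days 4 to 7, with 2697, 3834 and 3953 CPM with dTAG-13, against 1820, 2282 and 1645 CPM with DMSO. Every dTAG-13 library lay above every DMSO library. The log2 change was 0.87 ± 0.19 (SE, n = 3 each, edgeR adjusted p = 0.0204), a mean of 3495 ± 694 CPM with dTAG-13 and 1916 ± 329 CPM with DMSO (SD). The pair of clone H2 differed most, at log2 1.26, against 0.57 and 0.75 in the pairs of H7.

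Leaving out the DMSO library of H7 replicate 1 or either H2 library ended the WAPL calls of both Peg10 (adjusted p of 0.067, 0.172 and 0.17) and Sgce (adjusted p of 0.0824, 0.128 and 0.127), with the direction kept. Trophoblast markers moved with Peg10 on WAPL days 4 to 7. Of 7 tested there 4 rose, against 9.46% of all genes, and their summed level was 1083 to 1384 CPM with dTAG-13 and 370 to 610 CPM with DMSO. The giant cell and spongiotrophoblast markers Prl3d1 and Tpbpa were at 0 in every library of that comparison. On days 7 to 10 the sums were apart (2228 to 2632 CPM with dTAG-13, 1601 to 1791 CPM with DMSO) while Peg10 overlapped. In RAD21 RNA 2 of these markers rose and 3 fell, and in PRO-seq 1 fell. The part of these markers in the Peg10 result was not tested.

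With RAD21 degraded, Peg10 RNA had 3079 CPM (C4) and 2978 CPM (G9) with dTAG-13, against 2762 CPM (C4) and 2327 CPM (G9) with DMSO. The groups did not overlap, yet the change missed the threshold (log2 0.26 ± 0.14, SE, edgeR adjusted p = 0.226). Nascent counts rose by the fit, at 172 CPM (C4) and 535 CPM (G9) with dTAG-13, against 159 CPM (C4) and 314 CPM (G9) with DMSO. The clones stood apart more than the treatments did, and the within-clone log2 changes were 0.11 in C4 and 0.77 in G9 (fitted 0.44 ± 0.09, SE, edgeR adjusted p = 0.000706). Without the dTAG-13 library of G9, and with the clone term dropped for lack of libraries, the value turned to -0.46 with adjusted p = 1. On WAPL days 7 to 10 the groups overlapped, at 2971 and 4494 CPM with dTAG-13 and 2092 and 4560 CPM with DMSO.

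Genes listed beside Peg10 and Sgce did not all follow them. Calcr, the calcitonin receptor, fell on WAPL days 4 to 7, with 10.1, 18.9 and 9.63 CPM with dTAG-13 and 33.1, 39.1 and 33.8 CPM with DMSO (log2 -1.44 ± 0.23, SE, edgeR adjusted p = 0.00742). It fell in RAD21 RNA too, with 5.6 and 3.07 CPM with dTAG-13, against 19.9 and 11.4 CPM with DMSO (log2 -1.85 ± 0.14, SE, edgeR adjusted p = 1.18e-36). In both comparisons every dTAG-13 library lay below every DMSO library. Its days 7 to 10 libraries had 11.2 and 9.49 CPM with dTAG-13, against 32.6 and 20 CPM with DMSO, a change that missed the threshold (log2 -1.35 ± 0.30, SE, edgeR adjusted p = 0.663). Asb4, a maternally expressed substrate adaptor of ubiquitin ligases, rose in RAD21 RNA (160 ± 41.8 CPM with dTAG-13, 100 ± 24.6 CPM with DMSO, SD, n = 2 each, log2 0.67). Of the 8 listed genes tested per RNA comparison, 1 rose (Pon2, a paraoxonase, log2 0.72) and 1 fell on WAPL days 4 to 7. In RAD21 RNA 2 rose (Asb4, and the actin-binding neurabin gene Ppp1r9a, log2 0.23) and 2 fell (Calcr, and Pon2, log2 -0.34). Of 7 tested in PRO-seq 2 rose, Ppp1r9a (log2 0.21) and the pyruvate dehydrogenase kinase gene Pdk4 (log2 0.62). Both spreads were wide beside the change. Ppp1r9a had 247 ± 72.6 CPM with dTAG-13 and 215 ± 74.6 CPM with DMSO, and Pdk4 14.4 ± 7.21 and 9.75 ± 7.61 CPM (SD, n = 2 each). Medians over these lists were 0.18, -0.22 and 0.21, and 15.2%, 18.7% and 10.6% of all genes were called in these comparisons.

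Grb10 encodes an adaptor that binds the insulin and IGF1 receptors and restrains growth. It rose on WAPL days 4 to 7, the one member called there under all 16 alternatives run, with adjusted p between 1.85e-07 and 0.047. Its level was 45.3, 49.7 and 51.2 CPM with dTAG-13, against 27.5, 27.6 and 20.9 CPM with DMSO. The groups were widely separated and each was narrow, 48.7 ± 3.04 CPM with dTAG-13 and 25.4 ± 3.82 CPM with DMSO (SD, n = 3 each). The log2 change was 0.94 ± 0.13 (SE, edgeR adjusted p = 0.00455), and 94.3% of genes had a lower one. Later, on days 7 to 10, it had 23.4 and 21.4 CPM with dTAG-13, against 14.5 and 15 CPM with DMSO, again without overlap. The change missed the threshold (log2 0.60 ± 0.17, SE, edgeR adjusted p = 0.691), but passed with replicate number as a block.

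In RAD21 RNA Grb10 fell, with 6.74 CPM (C4) and 6.06 CPM (G9) with dTAG-13, against 8.43 CPM (C4) and 12 CPM (G9) with DMSO. The DMSO libraries differed from each other more than the dTAG-13 libraries did, and the groups did not overlap (log2 -0.63 ± 0.14, SE, edgeR adjusted p = 0.000175). With 1 of the 4 libraries left out the log2 change ranged between -0.90 and -0.39. Nascent Grb10 counts at day 7 lay the other way, at 18.3 CPM (C4) and 12.7 CPM (G9) with dTAG-13 and 14.8 CPM (C4) and 7.81 CPM (G9) with DMSO. The groups overlapped, because C4 was higher than G9 under both treatments, and the change missed the threshold (log2 0.47 ± 0.16, SE, edgeR adjusted p = 0.0564). It was 0.071 without the DMSO library of G9 and 0.99 without that of C4. The RNA and PRO-seq sets differ in day as well as in assay, and the difference between them was not tested.

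**Figure D3:**
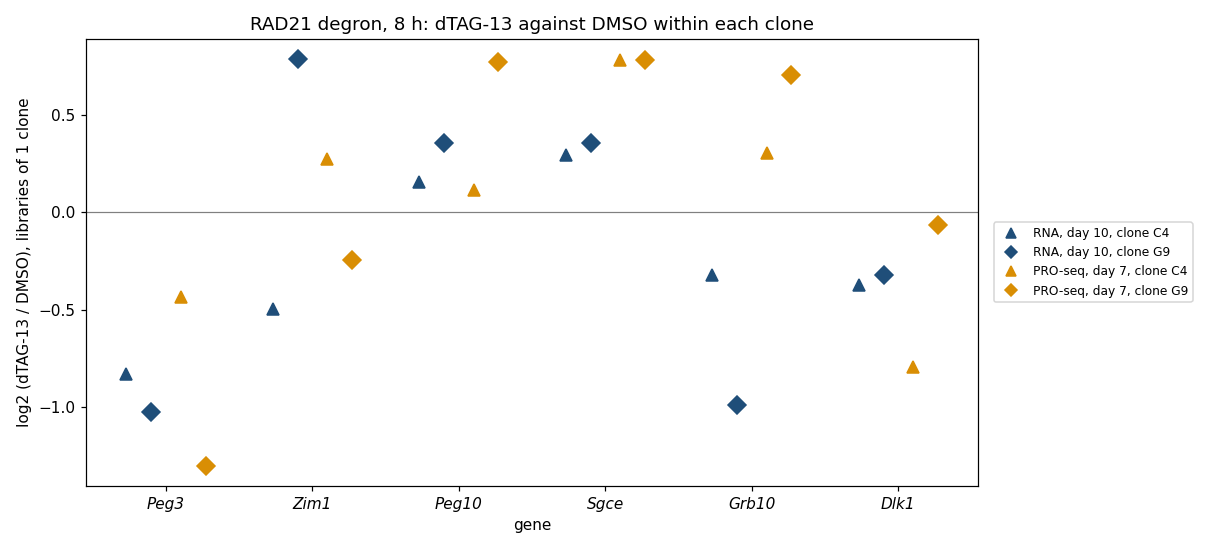
Log2 ratio of dTAG-13 to DMSO within each RAD21 degron clone (y axis) for the 6 genes found in both assays (x axis), in blue for RNA at day 10 and in orange for PRO-seq at day 7, with triangles for clone C4 and diamonds for G9. Both clones lie below 0 for Peg3 and above 0 for Sgce in both assays, while Grb10 lies at -0.32 and -0.99 in RNA and at 0.31 and 0.70 in PRO-seq.

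The order of Grb10 levels in RNA was WAPL days 4 to 7 with dTAG-13 (48.7 CPM), the same days with DMSO (25.4 CPM), WAPL days 7 to 10 with dTAG-13 (22.4 ± 1.39 CPM, SD, n = 2) and with DMSO (14.8 ± 0.37 CPM), and last RAD21 day 10, where dTAG-13 (6.4 ± 0.48 CPM) lay below DMSO (10.2 ± 2.52 CPM). The groups with dTAG-13 on days 7 to 10 and with DMSO on days 4 to 7 overlap, at 21.4 to 23.4 CPM and 20.9 to 27.6 CPM. The tables were scaled separately, so this order across tables is a description.

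Genes listed beside Grb10 moved in mixed directions. With WAPL degraded on days 4 to 7 the AAA ATPase gene Fignl1 fell (log2 -0.67) and Ikzf1, a lymphoid transcription factor, rose (log2 0.79), of 4 tested with a median of 0.0063. In RAD21 RNA Ddc, the aromatic amino acid decarboxylase next to Grb10, rose (8.02 ± 1.76 CPM with dTAG-13, 5.03 ± 0.072 CPM with DMSO, SD, n = 2 each, log2 0.66) and Ikzf1 fell (log2 -1.23), of 4 tested with a median of 0.030. The fall of Ikzf1 rests on few counts, 16 (C4) and 2 (G9) with dTAG-13, against 26 (C4) and 29 (G9) with DMSO. Ddc rose in PRO-seq too (51.8 ± 5.87 CPM with dTAG-13, 37.8 ± 2.01 CPM with DMSO, log2 0.47), as 1 of 5 tested. Over all genes 15.2% were called on WAPL days 4 to 7, 18.7% in RAD21 RNA and 10.6% in PRO-seq. Because strand use in the counting is not given in the sources used here, reads of overlapping or antisense neighbours cannot be told apart.

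Among 17 tested genes of insulin and IGF receptor signalling, the pathway that Grb10 acts on, 2 rose and 2 fell on WAPL days 4 to 7. The growth factor gene Igf2 rose (99.6 CPM with dTAG-13, 39.2 CPM with DMSO, log2 1.39) and so did Pik3r1 (log2 0.57), a regulatory subunit of PI3 kinase. The receptor substrate gene Irs4 (log2 -1.20) and Grb7 (log2 -0.68), of the same adaptor family as Grb10, fell. In RAD21 RNA 2 rose and 6 fell, led by Irs1 (9.55 CPM with dTAG-13, 28.3 CPM with DMSO, log2 -1.58), Irs2 (log2 -0.73), Irs4 (log2 -1.12) and the transcription factor gene Foxo1 (log2 -0.46). In PRO-seq 1 of 16 rose (Pik3r1, log2 0.34) and 4 fell, among them Irs2 (log2 -0.99), Irs1 (log2 -0.73) and the insulin receptor gene Insr (log2 -0.26). List medians were -0.029, 0.025 and -0.13, near those of all genes in the first 2 comparisons. The shares of all genes called were 15.2%, 18.7% and 10.6% in the same order.

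Mest encodes a protein of the alpha/beta hydrolase fold. It fell in RAD21 RNA, with 518 CPM (C4) and 433 CPM (G9) with dTAG-13, against 605 CPM (C4) and 519 CPM (G9) with DMSO. The groups nearly touch, at 518 CPM in the high dTAG-13 library and 519 CPM in the low DMSO library, and the call was lost without the clone term. Within clones the change was of like size (log2 -0.22 in C4 and -0.26 in G9, fitted -0.24 ± 0.08, SE, edgeR adjusted p = 0.0203). Leaving out 1 library gave log2 changes between -0.39 and -0.12. In WAPL degron cells on days 4 to 7 Mest had 372, 461 and 280 CPM with dTAG-13, against 443, 545 and 469 CPM with DMSO. Each pair was lower with dTAG-13 while the groups overlapped, and the change missed the threshold (log2 -0.41 ± 0.15, SE, edgeR adjusted p = 0.099), but passed with replicate number as a block (adjusted p = 0.0272). Its levels on days 7 to 10 were 374 and 492 CPM with dTAG-13 and 461 and 649 CPM with DMSO, which overlapped. Both pairs were lower with dTAG-13 there, and the change passed the threshold only with replicate number as a block.

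Copg2, a coatomer subunit gene convergent with Mest, fell in RAD21 RNA (log2 -0.20 ± 0.058, SE, edgeR adjusted p = 0.00563) and in PRO-seq (log2 -0.30 ± 0.09, SE, edgeR adjusted p = 0.0186). Its counts and those of Mest are uncertain where the genes overlap. The carboxypeptidase gene Cpa4 rose in both (log2 1.94 in RNA, 1.69 in PRO-seq) on low counts. In RNA it had 107 (C4) and 30 (G9) counts with dTAG-13, against 25 (C4) and 20 (G9) counts with DMSO. Nascent Cpa4 had 18 (C4) and 41 (G9) counts with dTAG-13, against 18.5 (C4) and 4 (G9) counts with DMSO, so that the PRO-seq difference lay mostly in G9 (2.82 CPM with dTAG-13 and 0.284 CPM with DMSO). These made 1 higher and 1 lower of 4 tested in RNA, and 1 higher and 1 lower of 6 in PRO-seq, against 18.7% and 10.6% of all genes called.

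Dlk1 encodes a transmembrane protein of the Delta-like family that holds back adipocyte differentiation. The WAPL libraries of days 4 to 7 had 18.2, 14.2 and 15.8 CPM with dTAG-13, against 11.9, 8.39 and 11.2 CPM with DMSO. No library of one group reached the other. The log2 change of 0.61 ± 0.18 (SE, edgeR adjusted p = 0.0555) fell short of the threshold, and with replicate number as a block it passed (0.63, adjusted p = 0.00497). Those of days 7 to 10 had 12.4 and 9.86 CPM with dTAG-13, against 8.23 and 6.32 CPM with DMSO, with no overlap and log2 0.61 ± 0.25 (SE, edgeR adjusted p = 0.78). That change too passed with replicate number as a block. In RAD21 RNA it had 7.91 CPM (C4) and 7.1 CPM (G9) with dTAG-13, against 10.2 CPM (C4) and 8.88 CPM (G9) with DMSO. Both clones were lower with dTAG-13 and the change missed the threshold (log2 -0.35 ± 0.14, SE, edgeR adjusted p = 0.062). Nascent Dlk1 counts were 2.69 and 2.85 CPM with dTAG-13 and 4.66 and 2.98 CPM with DMSO (log2 -0.49 ± 0.29, SE, edgeR adjusted p = 0.319).

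Meg3, a long noncoding RNA made from the other parental allele than Dlk1, did not pass the threshold in any of the 3 RNA comparisons. The WAPL libraries of days 4 to 7 had 428, 402 and 662 CPM with dTAG-13, against 364, 403 and 539 CPM with DMSO, both groups highest in clone H2 (log2 0.17 ± 0.10, SE, edgeR adjusted p = 0.274). Those of days 7 to 10 were close together, at 422 and 407 CPM with dTAG-13 and 443 and 440 CPM with DMSO, without overlap (log2 -0.091 ± 0.15, SE, edgeR adjusted p = 0.995). In RAD21 RNA the clones disagreed, with 344 CPM (C4) and 573 CPM (G9) with dTAG-13, against 361 CPM (C4) and 428 CPM (G9) with DMSO (log2 0.18 ± 0.08, SE, edgeR adjusted p = 0.0965). In no comparison did leaving out a library bring Meg3 past the threshold.

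Rian, a noncoding RNA that hosts small nucleolar RNAs downstream of Meg3, had 165 CPM (C4) and 205 CPM (G9) with dTAG-13, against 200.4 CPM (C4) and 212 CPM (G9) with DMSO in RAD21 RNA. The groups overlapped, and both clones were lower with dTAG-13 (log2 ratio -0.28 in C4 and -0.048 in G9). Its adjusted p was the largest of the 6 calls (log2 -0.17 ± 0.06, SE, edgeR adjusted p = 0.0411), and 2 of 11 alternatives kept the call, with RLE scaling giving 0.0704 and no filter on low counts 0.0631. Without the dTAG-13 library of C4 the log2 change was -0.019. In WAPL degron cells on days 4 to 7 Rian had 184, 236 and 339 CPM with dTAG-13, against 202, 243 and 331 CPM with DMSO, nearly equal within each pair. Later, on days 7 to 10, it had 203 and 219 CPM with dTAG-13, against 210 and 243 CPM with DMSO.

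Further along that domain, Dio3, the deiodinase that inactivates thyroid hormone, rose in RAD21 RNA with 10.7 and 13.4 CPM with dTAG-13, against 4.87 and 7.23 CPM with DMSO (log2 1.00 ± 0.14, SE, edgeR adjusted p = 3.03e-11). Its nascent counts did not pass the threshold (9.78 ± 0.55 CPM with dTAG-13, 8.91 ± 0.7 CPM with DMSO, SD, n = 2 each). Mirg, the noncoding RNA that follows Rian, had 40.6 ± 10.2 CPM with dTAG-13 and 41.6 ± 7.07 CPM with DMSO in RAD21 RNA. With Evl, an actin regulator gene (log2 0.17), Dio3 made 2 higher of 9 listed genes tested there, against 9.83% of all genes.

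**Figure D4:**
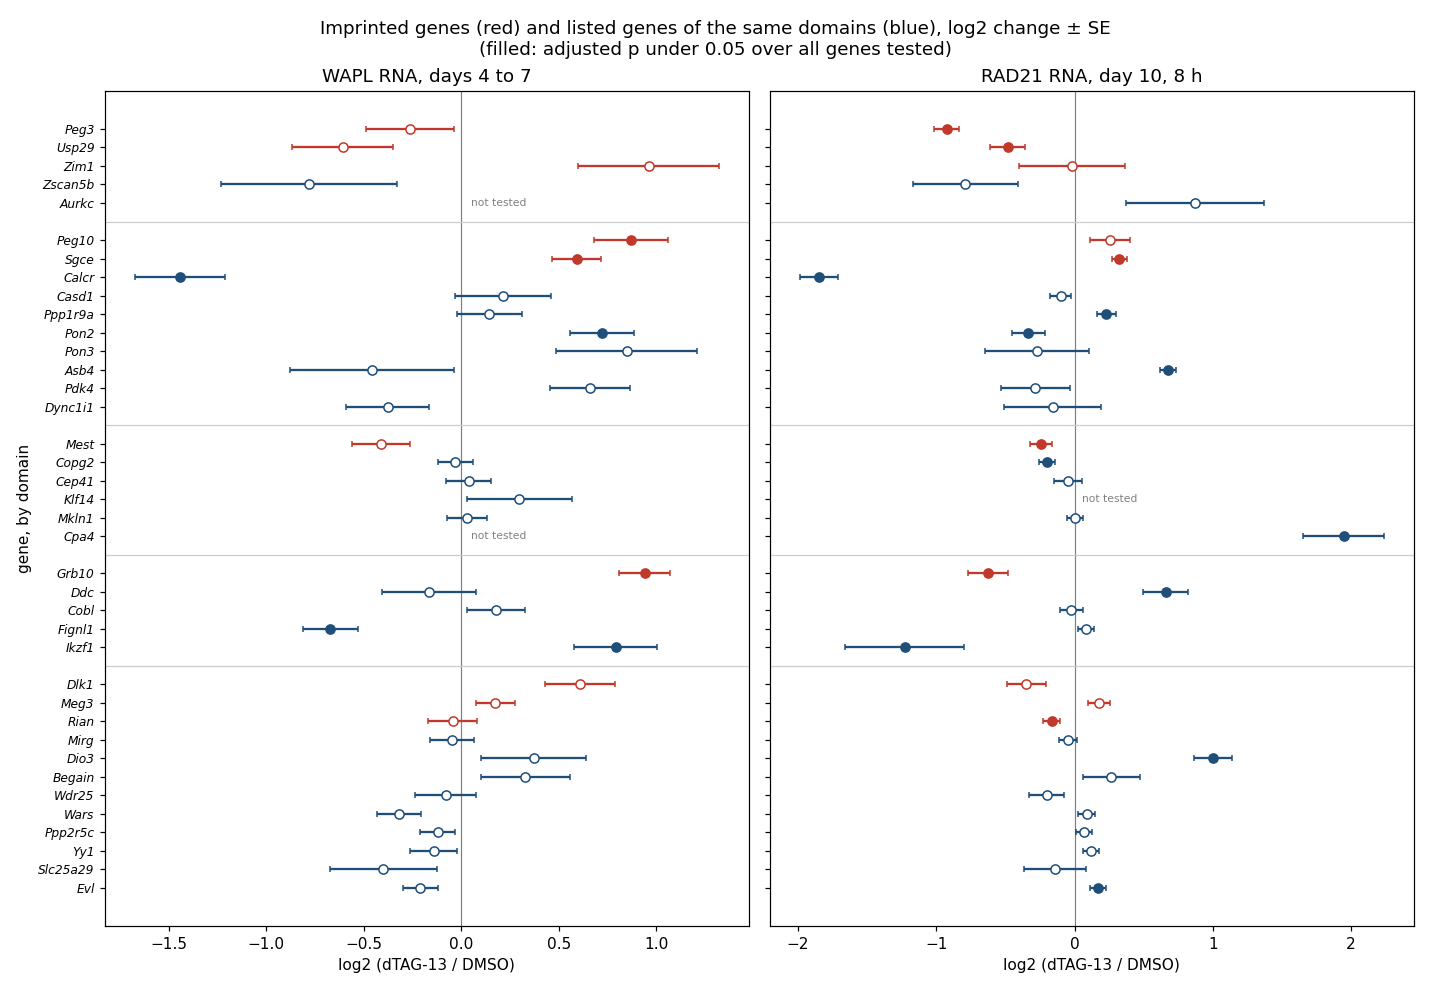
Fitted log2 changes (x axis, dTAG-13 over DMSO, bars 1 SE) of the imprinted genes in red and of listed genes of the same domains in blue (y axis, domains parted by lines), for WAPL days 4 to 7 on the left and RAD21 RNA on the right, with filled points at adjusted p under 0.05. Calcr lies furthest left in both panels (-1.44 and -1.85) while Peg10 and Sgce of the same domain lie right of 0.

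Responses to WAPL degradation on days 7 to 10 and on days 4 to 7 were set against each other in 1 fit. None of the 10 members, and none of the 14074 genes tested, passed the threshold for a difference, with 407 genes at an unadjusted p under 0.05 and 4 called by DESeq2. The later minus the earlier response was -0.71 ± 0.49 for Peg10, -0.35 ± 0.21 for Grb10, -0.27 ± 0.14 for Meg3 and -0.23 ± 0.19 for Sgce (log2, SE). For the other 6 it lay between -0.083 (Peg3) and 0.31 (Zim1). On days 7 to 10 themselves edgeR called 0 genes, with 926 at an unadjusted p under 0.05, while DESeq2 called 25 higher and 15 lower, none of them a member, and a replicate block raised the count by far more.

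Members and other genes were compared by pattern over the 14 RNA libraries, as the root mean square difference of log2(CPM + 0.5) after centring within each table, among 12211 genes averaging at least 2 CPM. The genes most like Peg3 were Zdbf2, itself paternally expressed, at 0.20, the GPI-anchor remodelling gene Pgap1 at 0.22 and the zinc finger gene Zfp109 at 0.22. The SD of Peg3 itself was 0.51 and the median distance over all genes 0.56. Usp29 came at 0.28, Mest at 0.42 and Rian at 0.42. In RAD21 RNA, part of the libraries used for the choice, the log2 values were -0.29 for Zdbf2 and -0.50 for Pgap1, which are descriptions. In PRO-seq, which the choice did not use, Zdbf2 fell (log2 -0.22, edgeR adjusted p = 0.0296) and Pgap1 did not pass (log2 -0.099, edgeR adjusted p = 0.447). The values of Zfp109 are not given here.

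Most like Grb10 were the septin gene Sept5 at 0.16, Rassf10 at 0.18 and Lrrc75a at 0.19, against an SD of 0.41 and a median of 0.46, and Dlk1 was the closest member at 0.27. Their log2 values on WAPL days 4 to 7 (Sept5 0.97, Rassf10 1.03, Lrrc75a 0.83), like that of Rassf10 in RAD21 RNA (-1.08), come from libraries the choice used, so they follow from it and are no support. Most like Meg3 were the transcription factor gene Twist1, also on the fibroblast list, at 0.12, and Rsrp1 and the mRNA decay factor gene Zfp36 at 0.13 each, against an SD of 0.25 and a median of 0.32, with Rian at 0.18. Libraries share clones and depth, so these distances are descriptions.

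Imprinted genes of other clusters were also counted. Of all genes tested, 15.2% were called on WAPL days 4 to 7 (9.46% higher), 18.7% in RAD21 RNA (9.83% higher) and 10.6% in PRO-seq (5.9% higher). Of 38 tested on WAPL days 4 to 7, 8 rose and 3 fell (median log2 0.16), with Igf2 (log2 1.39), Osbpl5 (1.13) and the noncoding RNA Airn (2.16) among the risers and Magel2 among the fallers (-1.10). Airn was at a low level, 1.43 ± 0.42 CPM with dTAG-13 and 0.276 ± 0.10 CPM with DMSO (SD, n = 3 each). Snrpn and Snurf, also lower, had nearly the same values (566 and 567 CPM with dTAG-13, 802 and 804 CPM with DMSO). They may not be separate observations. In RAD21 RNA 9 of 39 rose and 7 fell (median -0.0043). Magel2, a ubiquitin ligase regulator gene, fell to 6.32 CPM with dTAG-13, against 65.6 CPM with DMSO (log2 -3.39). The zinc finger gene Plagl1 fell (log2 -0.75), and Kcnq1ot1 (0.64) and Phlda2 (0.90) rose. In PRO-seq 11 of 37 rose and 3 fell (median 0.067), with Cdkn1c (1.26), Osbpl5 (0.54) and Trappc9 (0.30) higher and Magel2 (-1.66) lower. Plagl1 was called the other way there than in RNA (log2 0.30, edgeR adjusted p = 0.0428).

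Among 22 genes that set or keep imprints, 1 fell on WAPL days 4 to 7, the methyltransferase gene Dnmt3b (log2 -0.93). In RAD21 RNA 2 rose and 4 fell, among them the methylcytosine dioxygenase gene Tet3 (0.32) higher, and Zfp42 (-0.46), Dnmt3b (-0.38) and Dnmt3l (-0.26) lower. In PRO-seq 3 of 20 fell, Dnmt3b (-0.78), Zfp42 (-0.42) and Trim28 (-0.26), the corepressor that holds imprints through zinc finger proteins. The medians were -0.12, -0.032 and -0.044, beside 15.2%, 18.7% and 10.6% of all genes called. Zfp42 is also a marker of pluripotent cells.

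Notch pathway genes, listed because Dlk1 resembles Notch ligands, gave 2 higher and 1 lower of 16 on WAPL days 4 to 7, the target genes Hey2 (log2 1.33) and Hey1 (0.76) higher and the ligand gene Dll3 (-0.75) lower. In RAD21 RNA 2 of 15 rose and 6 fell, with the ligand genes Dll1 (-1.20) and Jag1 (-0.76) lower and Nrarp (0.38) and Dll3 (0.36) higher. In PRO-seq 2 of 14 fell, Hes1 (-0.41) and Notch3 (-0.26). Of the sarcoglycan and dystroglycan genes listed for Sgce, 1 of 8 rose on WAPL days 4 to 7, the dystrobrevin gene Dtna (0.47). In RAD21 RNA the utrophin gene Utrn (0.19) rose and the dystrophin gene Dmd (-0.34) fell of 8, and in PRO-seq Utrn (0.30), Sgcd (0.56) and Dtna (0.29) rose of 10. For both lists the shares called over all genes were 15.2%, 18.7% and 10.6% in these comparisons.

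Markers of other cell types also moved on WAPL days 4 to 7, where 9.46% of all genes were called higher and 5.73% lower. Fibroblast and feeder markers summed to 184 to 222 CPM with dTAG-13 and 155 to 177 CPM with DMSO, with 5 higher and 1 lower of 12 tested. Mesoderm and cardiac markers summed to 304 to 465 CPM with dTAG-13 and 232 to 277 CPM with DMSO, with 5 higher and 1 lower of 10. Neural progenitor markers summed to 215 to 266 CPM with dTAG-13 and 321 to 391.8 CPM with DMSO, with 1 higher and 1 lower of 6. In RAD21 RNA the haemato-endothelial sum was 65.3 to 80.2 CPM with dTAG-13 and 86.5 to 113 CPM with DMSO, with 2 of 8 tested lower and none higher. There the mesoderm and cardiac sum was 562 to 576 CPM with dTAG-13 and 625 to 640 CPM with DMSO, with 2 higher and 2 lower of 12. Of all genes in that comparison 9.83% were called higher and 8.89% lower. The haemato-endothelial and mesoderm sums were both lower with dTAG-13 without overlap, beside the members that fell. The fibroblast, trophoblast, neural and endoderm sums overlapped, that of fibroblasts at 458 to 476 CPM with dTAG-13 and 455 to 468 CPM with DMSO. The part of these markers in the members' changes was not tested.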

How the data were processed

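Poly(A) RNA (14 libraries) and PRO-seq (4 libraries) of mouse ES cells were used. Raw counts, 1 column per library, were deposited by the authors for RNA. The PRO-seq table deposited by the authors holds expected counts (steps of 0.5), and rounding made them whole for the test. TopHat2, Novoalign, Bowtie2, HOMER, DESeq, DESeq2, bedtools, cutadapt, deepTools and Juicer, and the builds mm9, hg19 and dm6, are named without role or version, per the submitters' processing notes. Which aligner, counting rule and strand setting made each table is not given in the sources used here. ChIP, Hi-C and other libraries of the series were not analysed here.

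Each table was fitted whole by the quasi-likelihood test of edgeR 4.0.16 (R 4.3.3), after TMM scaling and its filterByExpr filter at 10 counts, and called at a Benjamini-Hochberg adjusted p under 0.05. Clone was a term for both RAD21 sets and for WAPL days 4 to 7. The fits had few residual degrees of freedom, 1 in each RAD21 set, 2 on WAPL days 7 to 10, 3 on days 4 to 7 and 5 for both windows together. With so few, the test draws much of each gene's spread from the other genes, and in RAD21 RNA nearly all of it. A small p therefore does not show that the clones agreed. Nascent Peg10, with log2 changes of 0.11 and 0.77 within clones, had an SE of 0.09, as did Sgce at 0.78 in both. In RAD21 RNA Meg3, at -0.071 and 0.42 within clones, had an SE of 0.077. That of Mest, at -0.22 and -0.26, was 0.081. CPM used filtered library totals times TMM factors.

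On WAPL days 4 to 7 deviations from group means correlated at 0.52 and 0.54 within same-numbered H7 libraries and 0.63 within H2 (all tested genes). The numbers thus pair the samples, and on days 7 to 10 the correlation was 0.79 within a number. The labels do not say what a number marks, so the fits reported first leave it out and those with a replicate block are alternatives. WAPL results given without a block therefore ignore this pairing. In the RAD21 sets the clone pairs the samples, at 0.68 in RNA and 0.72 in PRO-seq.

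Alternatives were RLE scaling, library totals, no filter, a filter at a mean of 50 counts, limma-voom (limma 3.58.1), DESeq2 1.42.0, fits with and without clone or replicate block, clone H7 alone, unrounded PRO-seq counts, and leaving out each library. All 10 members were named in every comparison, with up to 4 called genes of smallest p from each list, and for Peg3, Grb10 and Meg3 the 3 genes most like each. Among genes named outside that rule, Plagl1 in PRO-seq was named for its direction, and Snrpn and Snurf for their like values. A gene listed beside Mest is not reported here. Members and lists were chosen with earlier results of these data known. Figures were drawn with matplotlib 3.10.9.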

Additional observations from a re-analysis of the deposited data

Results flagged for a closer look

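Grb10 lay in opposite directions in the RNA and PRO-seq sets after RAD21 degradation. The mean of the within-clone log2 ratios of dTAG-13 to DMSO was -0.66 in RNA at day 10 and 0.50 in PRO-seq at day 7. Both clones were lower in RNA and both were higher in PRO-seq, where the fitted log2 change was not past the threshold and lay between 0.071 and 0.99 with 1 library left out. The difference was not tested, and assay and day differ together between the sets, so they cannot be told apart.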

How the results depend on the processing

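On WAPL days 4 to 7, 3 members were called, against 6 with no filter, 1 in clone H7 alone and 5 in H7 alone with a replicate block. With the replicate block over all 6 libraries it was 5 members and 3993 genes, against 2209 genes without it. All genes called were 994 with no clone term and 360 in H7 alone. Leaving out 1 library gave 1 to 7 members and 341 to 4433 genes, and Rian ranged between -0.14 and 0.062.

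On days 7 to 10, DESeq2 called 40 genes. There the 2 groups share only replicate numbers (correlation of deviations 0.79 within a number), and a replicate block called 7 members and 5141 genes (2466 higher, 2675 lower). By edgeR with that block Sgce (adjusted p = 9.95e-06), Grb10 (1.48e-05), Dlk1 (0.000574) and Zim1 (0.00065) were higher, and Mest (0.00147), Usp29 (0.0125) and Peg3 (0.0411) lower. Leaving out 1 library gave 0 to 1 members and 27 to 143 genes, with Peg3 between -1.01 and 0.57, Zim1 between -0.42 and 2.82, Peg10 between -0.27 and 0.84, and Rian between -0.19 and 0.014.

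In RAD21 RNA, DESeq2 called 1 member and 476 genes, and without the replicate block (no clone term) it was 0 members and 1 gene, with 838 genes at an unadjusted p under 0.05. Leaving out 1 library gave 0 to 1 members and 16 to 94 genes, with Meg3 between -0.20 and 0.53 and Zim1 between -0.45 and 0.72. Zim1 was 0.033 with limma-voom and 0.061 with no clone term. In PRO-seq, DESeq2 called 1 member and 504 genes, and without the replicate block 0 members and 0 genes, with 492 at an unadjusted p under 0.05. Leaving out 1 library gave 0 to 0 members and 0 to 0 genes (262 to 795 at an unadjusted p under 0.05), with Peg10 between -0.46 and 1.18 and Zim1 between -0.32 and 0.35. Zim1 was -0.012 with no clone term. Fits without a RAD21 library have no clone term, and the lone library is taken to vary like the others.

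For the difference between WAPL windows, DESeq2 called 4 genes and a replicate block 2. Peg3 was 0.037 with limma-voom and 0.039 with the block, and Mest was -0.095 in H7 alone. Dlk1 was 0.0062 with RLE scaling, 0.012 with no filter, 0.0039 with a mean count of at least 50 and 0.0061 with DESeq2. With 1 library left out, the ranges were -0.76 to 0.83 for Peg3, -0.10 to 0.58 for Usp29, -1.40 to 1.89 for Zim1, -0.18 to 0.32 for Mest, -0.19 to 0.19 for Dlk1 and -0.16 to 0.049 for Rian. Of the alternatives for single members, 499 kept direction and side of the threshold, 60 lost a call, 26 gained one and 45 turned direction. The cause was not tested. Counting depth limits Zim1 most, with 12 to 28 counts per RAD21 RNA library.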
